A study of Homo sapiens with 6 samples.

Results

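The zinc finger genes of human chromosome 19 were examined for binding sites of USP39, which belongs to the tri-snRNP, the complex of the U4, U5 and U6 RNAs and their proteins that enters the assembling spliceosome before it becomes active. The members were taken by symbol and place. They are the protein-coding genes of chromosome 19 whose symbol is ZNF followed by a number in the RefSeq table of GRCh38.p14, 240 of the 20050 protein-coding genes with a position, and 16.5% of the 1451 on that chromosome. The sites come from wild-type cells of HEK293T, an established line from human embryonic kidney, irradiated with UV light of 254 nm and subjected to iCLIP2, in which the RNA crosslinked to an immunoprecipitated protein is sequenced and sites of crosslinking are mapped. Antibodies against USP39 were used for 6 libraries, 3 from a low and 3 from a high region of the membrane, and 1 merged list of 34781 sites, each 5 nt wide, was analysed. That list is filed under the low region, replicate 1, and which libraries were merged is not given in the sources used here. A control without UV light was not analysed here.

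Zinc finger genes of this kind encode proteins in which short C2H2 fingers, each folded around a zinc ion, stand in a row and read DNA sequence. Many of those on chromosome 19 also carry a KRAB domain near the N terminus, which recruits the corepressor TRIM28 and through it enzymes that silence chromatin, with transposable elements as a well-known target. The genes arose by repeated duplication and lie in clusters. Their finger array is generally encoded by the last coding exon, near the 3' end of the gene.

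The list holds positions alone, with the score at 0 in every row. There is therefore no read depth, no value per library and no replicate error for any site, and no test between groups of genes was made. Intervals given below are 95% Wilson intervals, which cover counting error over genes or sites. A list of sites does not measure expression, so neither the identity of the cells nor the RNA level of any gene was checked, and a gene without a site may have been bound below detection or not transcribed. A site was counted for a gene when its central base lay in the gene span and on the strand that held most of the gene's sites. The 5' and 3' ends of a gene were taken from that strand too. Positions are on GRCh38, counted from 1.

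Few of the chromosome 19 zinc finger genes had a USP39 site. Of the 240 genes, 10 had at least 1 site (4.17%, interval 2.28% to 7.50%), against a background of 23.1% over all protein-coding genes (4629 of 20050). The other protein-coding genes of chromosome 19 had a site in 321 of 1211 cases (26.5%, interval 24.1% to 29.1%). The ZNF genes of the other chromosomes had one in 46 of 237 (19.4%, interval 14.9% to 24.9%). These were taken by symbol alone and were not matched to the members by type of zinc finger gene. The interval of the members thus lay below, and did not reach, those of these groups. It did overlap that of the other protein-coding genes within the members' clusters, described below (8 of 95, 8.42%, interval 4.33% to 15.7%). Both ZNF146 and ZNF565, and both ZNF580 and ZNF581, were counted from shared sites. Without sites that also lie in another protein-coding gene, 6 members had a site (2.50%, interval 1.15% to 5.35%), against 21.2% over all protein-coding genes. With at least 3 sites required, 5 members had enough (2.08%) against a background of 12.8%.

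The spans of these genes were of ordinary length. The median span was 23131 nt in the members, 24093 nt over all protein-coding genes and 23544 nt in the ZNF genes elsewhere, while the other genes of chromosome 19 were shorter, at 12798 nt. Within spans of 10 to 50 kb, a range chosen after the values were seen, 7 of 188 members had a site (3.72%) against 26.6% of 8074 protein-coding genes and 31.3% of 636 other genes of the chromosome. In the ZNF genes of other chromosomes it was 27 of 150 (18.0%). None of the 54 members of 30 to 50 kb had a site, which leaves an upper Wilson bound of 6.64%, and in all protein-coding genes of that length the share was 30.3%. The 10 members with a site had a median span of 19548 nt and the 230 without one of 23131 nt.

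**Figure D1:**
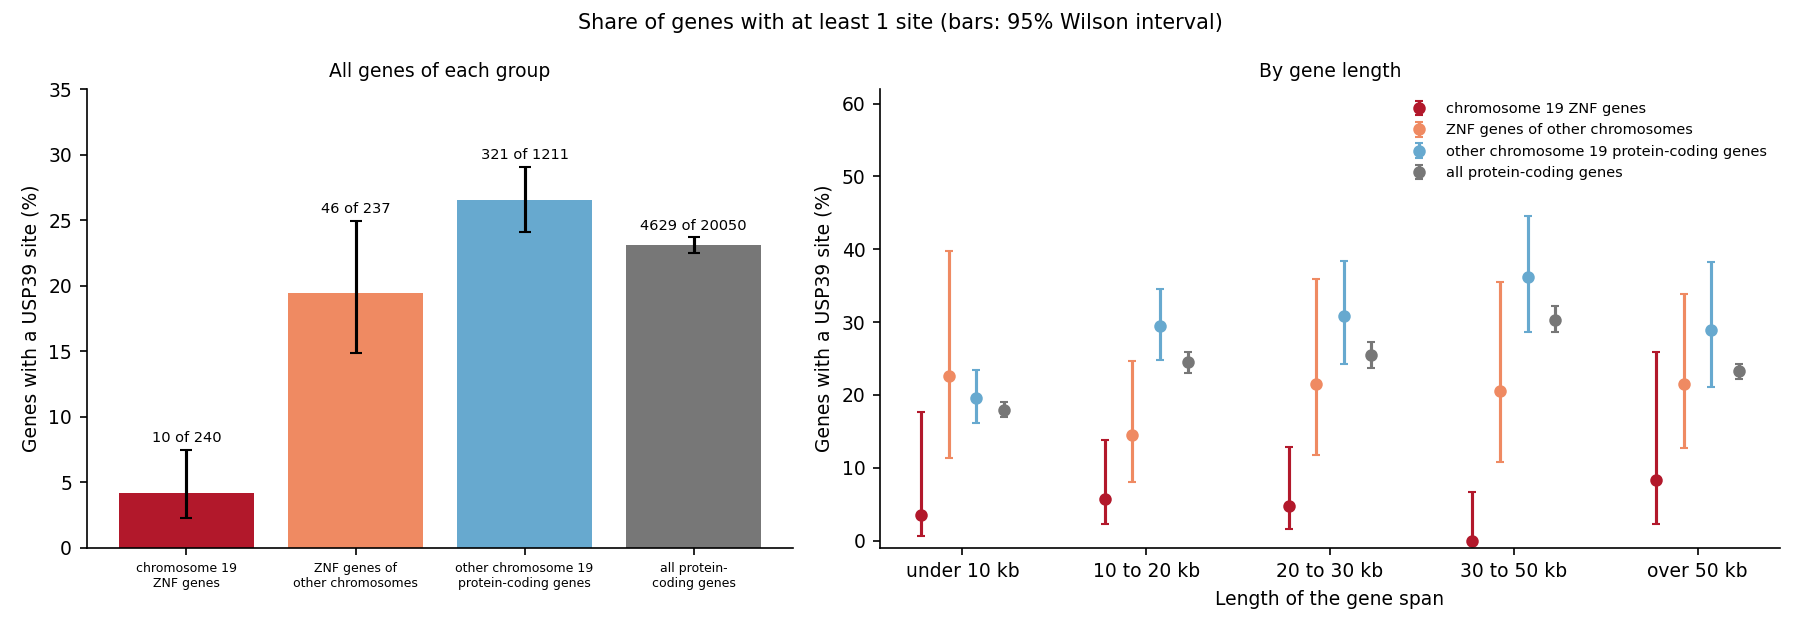
Share of genes with at least 1 USP39 site, in percent, for the 4 groups of genes (left) and for the same groups by length of the gene span (right). Bars and points are shares and error bars 95% Wilson intervals. The chromosome 19 ZNF genes stand at 4.17% against 23.1% of all protein-coding genes, and have the lowest point in every length class. In every class but 30 to 50 kb, their error bars overlap those of the ZNF genes of other chromosomes. Under 10 kb and over 50 kb they also overlap those of all protein-coding genes.

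The members with a site held 33 distinct sites, which are 1.41% of the 2338 sites on chromosome 19. Per 100 kb of summed span this was 0.470 sites, compared with 8.60 in the other protein-coding genes of the chromosome and 2.46 over all protein-coding genes. Among genes that had a site the medians were close, at 3.5 sites in the members and 3 over all protein-coding genes. The maxima were not, at 10 sites in the 10 members and 180 in the 4629 protein-coding genes. Because 6 of the sites lay in the spans of a pair of members at once, the members made 39 pairs of a gene and a site. No member had sites on both strands.

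ZNF460, ZNF587 and ZNF121 together held 21 of the 33 sites (63.6%). ZNF460, whose protein carries a KRAB domain, had 10 sites on the plus strand, the most of any member. Among all protein-coding genes, with or without a site, 4.17% had more. ZNF460 spans 57279982 to 57294069 near the long-arm end of the chromosome. Its first site, at 57280046 to 57280050, was centred 66 nt from the gene start, in a stretch that ZNF460-AS1, a noncoding gene, also covers. The second lay at 57280703 to 57280707. After a gap of 10154 nt without a site, the other 8 followed between 57290857 and 57293982, in the last 3210 nt of the gene. The closest to the 3' end was centred 89 nt from it.

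ZNF587, another gene for a KRAB zinc finger protein, spans 57849859 to 57865117 on the same arm and had 6 sites. All 6 lay between 57860633 and 57864789, at distances of 4482, 4086, 2148, 1991, 1830 and 330 nt from the 3' end. The 5' part of ZNF587 was empty, unlike that of ZNF460. ZNF587 has close relatives nearby in ZNF587B and ZNF417, and neither of these had a site in spans of 15940 and 10819 nt. How reads that match several copies were treated is not given in the sources used here, so the split of sites among such relatives is uncertain.

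ZNF121, on the short arm, spans 9560329 to 9584504 on the minus strand and had 5 sites. Of these, 4 were centred 1264, 1404, 1570 and 1793 nt from the 3' end, the outermost pair at 9561591 to 9561595 and 9562120 to 9562124. The fifth, at 9568130 to 9568134, lay 6010 nt further upstream. Most of the sites in ZNF121 thus lay close to its 3' end.

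ZNF146 encodes a protein that consists almost entirely of zinc fingers and has no KRAB domain. Its span, 36214723 to 36238768 on the plus strand, lies wholly within that of ZNF565, a KRAB zinc finger gene annotated on the minus strand from 36182060 to 36245928. All 5 sites of ZNF146 lay on the plus strand, and the same 5 were the sites counted for ZNF565. They were therefore opposite to the annotated strand of ZNF565, which had no site on its own strand. Positions in ZNF565 follow the plus strand, so its 3' end here is its annotated 5' end. In ZNF146, sites at 36236393 to 36236397, 36237591 to 36237595 and 36238561 to 36238565 were centred 2373, 1175 and 205 nt from the 3' end. The other 2, at 36222094 to 36222098 and 36222391 to 36222395, lay 14002 nt and more upstream of those. For the other 9 members with a site, the main strand was the annotated one. Over all protein-coding genes with a site and a strand in the RefSeq promoter table, the main strand was the annotated one in 94.4% of 3891.

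The remaining 5 members had 1 or 2 sites each. ZNF428 had 2 sites on the minus strand, at 43607521 to 43607525 and 43607564 to 43607568, centred 299 and 342 nt from its 3' end. ZNF8, a KRAB zinc finger gene whose span the read-through locus ZNF8-ERVK3-1 shares, had sites at 58296569 to 58296573 and 58299992 to 58299996, centred 6220 and 2797 nt from the 3' end. ZNF254 differed from these. Its 2 sites, at 24063792 to 24063796 and 24065140 to 24065144, were 66174 and 64826 nt from the 3' end of a span of 96520 nt. ZNF580 and ZNF581 overlap on the plus strand and shared 1 site, at 55643198 to 55643202, centred 270 nt from the 3' end of ZNF580 and 2423 nt from that of ZNF581.

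**Figure D2:**
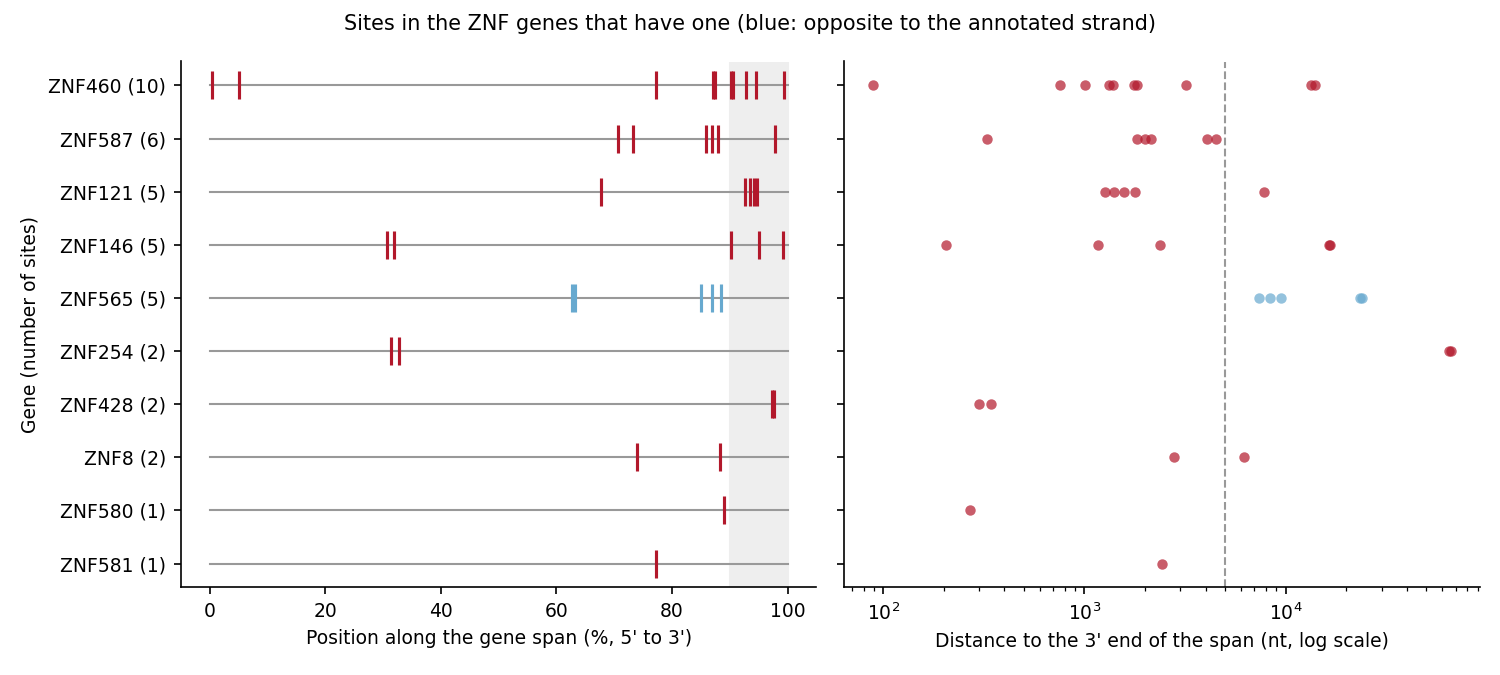
Every site in the 10 chromosome 19 ZNF genes that had one, as percent of the gene span from 5' to 3' (left, last 10% shaded) and as distance to the 3' end in nt on a log axis (right, dashed line at 5 kb). Ends follow the strand of the sites, so the direction of ZNF565 is opposite to its annotation. Red marks are on the annotated strand and blue marks, all in ZNF565, opposite to it; 26 of the 39 marks lie within 5 kb of the 3' end.

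Most of the members' sites lay within a few kb of the 3' end of the gene. Of the 39 pairs of gene and site, 26 were within 5 kb of the 3' end (66.7%, interval 51.0% to 79.4%), against 44.4% of 33203 pairs over all protein-coding genes and 45.5% of 233 in the ZNF genes of other chromosomes. In the other genes of chromosome 19, which are shorter, the share was 55.4%. Intervals over pairs treat them as independent, though 6 sites were counted in 2 members each. Also, 21 of the 33 distinct sites lay in ZNF460, ZNF587 and ZNF121, so the intervals do not measure spread over members. The last 10% of the span held 15 of 39 (38.5%, interval 24.9% to 54.1%), against 24.1% over all protein-coding genes, 26.4% in the other genes of chromosome 19 and 23.6% in the ZNF genes elsewhere. Of these, 26.4% lies inside that interval and the others just below it. Because the interval treats the 39 pairs as independent, which they are not, so narrow a margin does not show a higher share. Without ZNF460, a setting chosen after seeing the data, the share was 34.5% (interval 19.9% to 52.7%), and with sites within 50 nt joined it was 37.8% (interval 24.1% to 53.9%). Without sites that also lie in another protein-coding gene it was 44.4% (interval 27.6% to 62.7%), against 24.1% over all protein-coding genes. Whether the interval reached that background thus depended on the setting. The next 10% held 10 further pairs, or 25.6% against 11.6%. These include pairs of ZNF565 whose sites were already counted for ZNF146 in the last 10%. In the first 10% lay 2 sites, both in ZNF460. The median distance to the 3' end was 2148 nt in the members and 6348 nt over all protein-coding genes. It was 3998 nt in the other genes of chromosome 19 and 6464 nt in the ZNF genes of other chromosomes. These distances were not matched for length of the span.

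This position was not the same in every member. Among the 5 members with at least 3 sites, the share in the last 10% was 80.0% in ZNF121, 60.0% in ZNF146, 50% in ZNF460, 16.7% in ZNF587 and 0% in ZNF565. In ZNF565 the sites were on the other strand, and the last 10% was taken along that strand. The median of these 5 was 50%, and it was 20% over 2558 protein-coding genes with at least 3 sites. With sites on the annotated strand alone, which leaves out ZNF565, 44.1% of the members' sites were in the last 10% (interval 28.9% to 60.5%). Over all protein-coding genes this share was 24.8%. A site within 500 nt of the 3' end was present in ZNF460, ZNF587, ZNF146, ZNF428 and ZNF580. Exon boundaries were not used here, so the finger-coding part of the last exon and the untranslated part behind it could not be told apart.

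**Figure D3:**
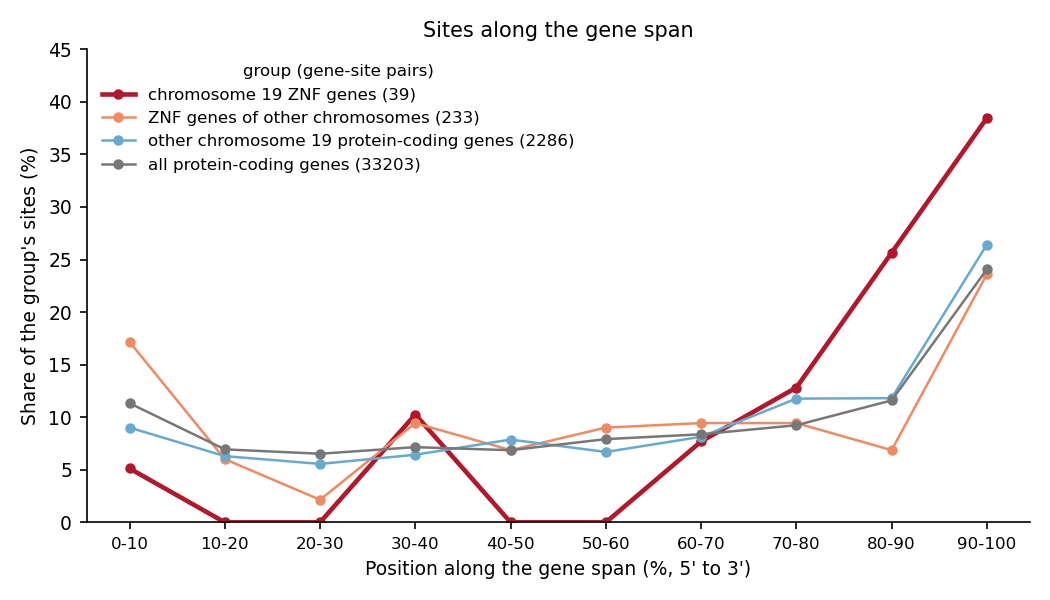
Share of each group's gene-site pairs, in percent, in 10 equal parts of the gene span from 5' to 3', for the chromosome 19 ZNF genes (39 pairs) and 3 comparison groups. The members reach 38.5% in the last part and 25.6% in the part before it, against 24.1% and 11.6% over all protein-coding genes, and several of their parts hold no site. Pairs of ZNF565 are placed along the strand of their sites, opposite to its annotation.

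Few of the members' sites had a close neighbour. Of the 39, 4 lay at most 50 nt from another site of their gene (10.3%, interval 4.06% to 23.6%), against 34.0% over all protein-coding genes and 22.3% in the ZNF genes of other chromosomes. These were the pair in ZNF428, with central bases 43 nt apart, and a pair in ZNF460 at 57292248 to 57292252 and 57292298 to 57292302, 50 nt apart. A further pair in ZNF460 was 52 nt apart, just outside that limit. No run of neighbours was longer than 2 sites in the members, while the longest in any protein-coding gene had 7. These maxima are over sets of unlike size, 39 and 33203 pairs, so they are not a comparison of like with like. Within 20 nt none of the members' sites had a neighbour, against 21.4% over all protein-coding genes. Genes with more sites have more room for close neighbours, and these comparisons were not matched for sites per gene. The most in a member was 10, and in any protein-coding gene 180. ZNF587 and ZNF121 had nearest gaps of 157 and 140 nt. The sites near the 3' ends of these genes were therefore loose series rather than abutting runs.

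Along the chromosome, members were chained into genomic clusters where the gap between spans was at most 500 kb. This gave 10 clusters of at least 5 members, with 228 of the 240 genes, and all 10 genes with a site were in them. Of these clusters, 6 had a gene with a site. The cluster at the end of the long arm, ZNF264 to ZNF446 (57191500 to 58489533), had 3 of 41, namely ZNF460, ZNF587 and ZNF8, and 18 of the 33 sites. The cluster from ZNF101 to ZNF254, around the centromeric end of the short arm and 4462 kb long, had sites in ZNF254 alone of 37 members. The cluster ZNF175 to ZNF331 (51571283 to 53580269) had none in 39 members, and ZNF653 to ZNF791 (11483429 to 12633834) none in 25. No cluster of at least 5 members had a share over 12.5%, the value of ZNF628 to ZNF835 with ZNF580 and ZNF581 among 16. ZNF414 to ZNF846 had ZNF121 of 13, ZNF565 to ZNF573 had 2 of 24, and ZNF575 to ZNF180 had ZNF428 of 23. The longest members without a site were ZNF536 at 487995 nt, which stands alone on the long arm, ZNF420 at 122467 nt and ZNF69 at 92441 nt.

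**Figure D4:**
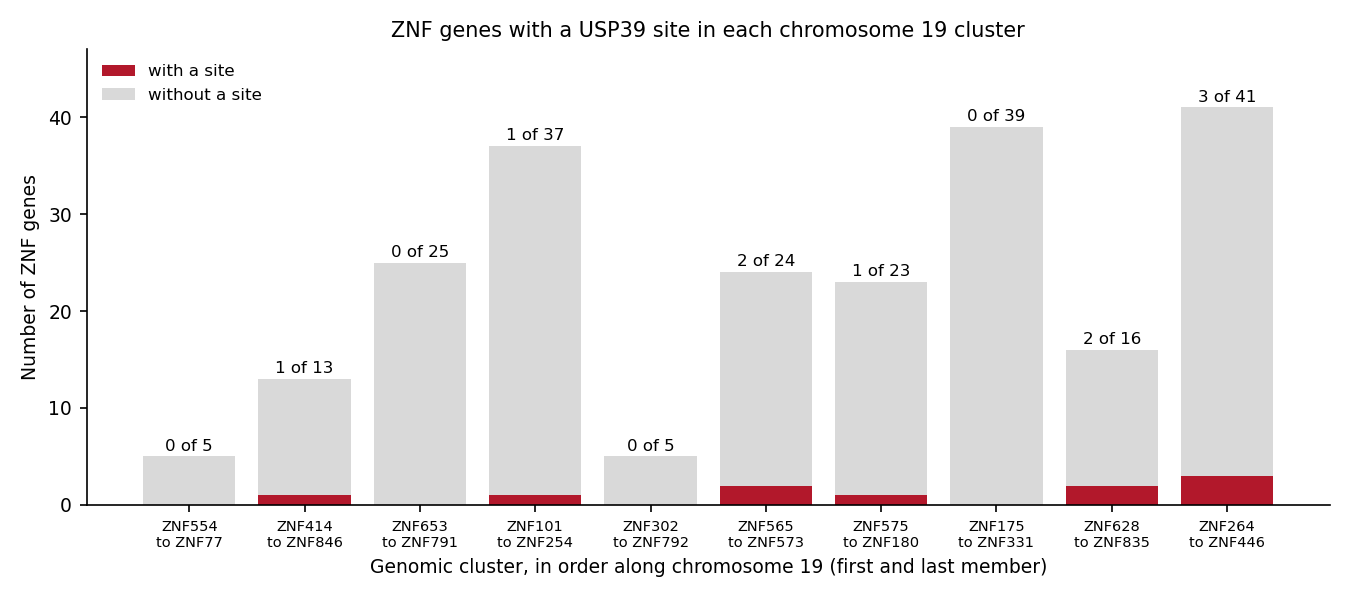
Number of ZNF genes with (red) and without (grey) a USP39 site in the 10 chromosome 19 clusters of at least 5 members, in order along the chromosome and named by their first and last member. Counts over the bars run from 0 of 39 in ZNF175 to ZNF331 to 3 of 41 in ZNF264 to ZNF446.

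Other protein-coding genes lie between the members of these clusters. Over the 10 clusters of at least 5 members, 8 of 95 such genes had a site (8.42%, interval 4.33% to 15.7%), compared with 26.5% of all the chromosome's other protein-coding genes. That interval overlaps the one of the members, 2.28% to 7.50%. Within the clusters, a low share was therefore not shown to be particular to the members. The 95 include zinc finger genes whose symbols fall outside the rule, such as ZNF587B, and were not split by gene family. By cluster the counts ran from 0 of 15 in ZNF414 to ZNF846 and 1 of 16 in ZNF175 to ZNF331 to 3 of 26 in ZNF628 to ZNF835, 2 of 10 in ZNF575 to ZNF180 and 1 of 4 in ZNF653 to ZNF791.

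Most genes of the corepressor machinery through which KRAB zinc finger proteins act had a site. Of the 16 genes in that list, 14 did (87.5%, interval 64.0% to 96.5%), against the background of 23.1%, and 9 had at least 3, against 12.8%. The list was chosen with earlier results of these data known, so these shares are a description and not a test. Its genes were also longer, with a median span of 40664 nt against 24093 nt over all protein-coding genes. TRIM28, the corepressor that binds the KRAB domain, lies on chromosome 19 itself (58544064 to 58550715), shortly beyond the last member cluster. It had 35 sites on the plus strand in a span of 6652 nt, against 33 distinct sites in all 240 zinc finger genes. Its sites ran from 58544453 to 58550684, and 22.9% lay in the last 10% of the span. SETDB1, the histone methyltransferase that TRIM28 recruits, had 2 sites, and its partner ATF7IP had 1.

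Among the heterochromatin protein genes, CBX5 had 50 sites, CBX3 had 26 and CBX1 had 1. In CBX5, 42.0% of the sites lay in the last 10% of the span, and in CBX3 15.4%. CHD4 and CHD3, remodellers of the NuRD complex, had 42 and 4 sites, and the deacetylase genes HDAC1 and HDAC2 had 36 and 13. Of the genes for the HUSH silencing complex and its partner, TASOR had 4, PPHLN1 had 1 and MORC2 had 3, while MPHOSPH8 had none. SMARCAD1, a remodeller that binds TRIM28, had 2, and ATF7IP2 none. Over the 220 sites of the list, 24.5% lay in the last 10%, near the 24.1% of all protein-coding genes.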

How the data were processed

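The submitters' processing notes name STAR 2.7.3a, UMI-tools 1.1.2, bedtools 2.29.2, SAMtools 1.10, FastQC 0.11.9 and the build GRCh38.p12, without their roles. For the site caller, its filters and the treatment of reads with several matches, nothing is given in the sources used here. The authors deposited a BED list with site positions and a score of 0 throughout. Depth is unknown.

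Gene spans came from RefSeq (GRCh38.p14) and annotated strands from its promoter table, which gave a strand for 210 of 240 members. Each gene whose span held a site's central base received it, so overlapping genes share sites. Ties of strand went to the annotated strand. Members, lists and rules were chosen with earlier results of these data known. Genes were named by a fixed rule: the 10 with most sites, the leader of each cluster, members with the longest runs, the 3 longest without a site, members of at least 5 sites with all or none in the last 10%, and every gene of the corepressor list with a site. ZNF587B, ZNF417, MPHOSPH8 and ATF7IP2 were named after their values were seen, as were MZF1 and the ZNF genes of other chromosomes. Counts used pandas 2.3.3 and numpy 2.4.6 in Python 3.11.15, intervals scipy 1.17.1 and plots matplotlib 3.10.9, and the counting was tested on simulated data.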

Additional observations from a re-analysis of the deposited data

Results flagged for a closer look

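Past the 3' end of ZNF460 lay 4 sites in no gene of the RefSeq table, a signal that the counts by gene do not use. They were on the plus strand, the strand of ZNF460, at 57297321 to 57297325, 57297415 to 57297419, 57297672 to 57297676 and 57298645 to 57298649, centred 3254, 3348, 3605 and 4578 nt from the annotated end. Within 5 kb of the members there were 13 sites outside their own spans, next to 6 members, and the other 9 lay in other genes. The RNA these 4 sites belong to was not tested.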

How the results depend on the processing

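Of 22 alternative values, 18 stayed within the interval of the reported share or within 1.5 times the reported count. With at least 3 sites required, the share of members with a site was 2.08% and the corepressor list had 9 genes. Within the last 5 kb instead of the last 10% of the span lay 66.7% of the members' sites. With neighbours sought within 20 nt, 0% of sites had one. Without sites that also lie in another protein-coding gene, the share of members with a site was 2.50% (6 of 240) and the number of sites 27. Of these 27, 44.4% lay in the last 10% (interval 27.6% to 62.7%), against 24.1% over all protein-coding genes. Chosen after seeing the data, leaving out ZNF460 gave 34.5% of sites in the last 10% (interval 19.9% to 52.7%, which holds the 24.1% of all protein-coding genes) and 6.90% with a neighbour within 50 nt. No paired analysis was possible because the merged list has no value per library, and for the same reason no library could be left out. With 33 sites and unknown depth, single genes without a site say little.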

Other observations

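Some zinc finger genes of chromosome 19 have symbols that fall outside the rule. Of 22 such genes, chosen by symbol after the values were seen (ZNF with a letter after the number, ZFP, ZSCAN and ZIM genes, ZIK1, PEG3 and MZF1), 1 had a site, beside 4.17% of the members and 23.1% of all protein-coding genes. This was MZF1, a SCAN-type zinc finger gene at the end of the long arm, with 5 sites on the minus strand between 58563756 and 58573471. Its site nearest the 3' end was centred 1826 nt from it, and the farthest, 11537 nt away, stood near the gene start.

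The ZNF genes of other chromosomes that had many sites included ZNF703 on chromosome 8 with 32, ZNF207 on chromosome 17 with 22, ZNF664 on chromosome 12 with 19, ZNF24 on chromosome 18 with 17 and ZNF346 on chromosome 5 with 15, each more than ZNF460. ZNF207 encodes a protein of mitotic spindle assembly, and ZNF346 one that binds double-stranded RNA. Chromosomes 7 and 16, which also hold many ZNF genes, had a site in 9 of 34 (26.5%) and 8 of 29 (27.6%), compared with 4.17% on chromosome 19; these chromosomes were picked after the values were seen and no test was made.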
